A study of Mus musculus with 6 samples.

Results

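The Tex (testis expressed) and Spata (spermatogenesis associated) genes are named for where they were first found, not for a shared sequence or function. The genes described here carry a symbol of Tex or Spata followed by a number, with letters after it allowed, lie on chromosomes 1 to 19 of the mouse build GRCm38, and hold at least 3 cytosine positions read 10 or more times in all 6 libraries from 1000 bp before to 1000 bp past the gene. Tex101 was left out by the rule. Of 53 such symbols, 30 genes qualified, 12 Tex and 18 Spata, among 22317 genes of the whole gene table that held as many positions. They held 1054 of 952515 measured positions. Another 20 symbols had no measured position, among them Tex12, a synaptonemal complex gene, and Spata19, a sperm mitochondrial gene. Just inside the minimum stood Tex21 with 3 positions, and just outside it Spata21, Tex35 and Tex37 with 2 each.

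The assay was reduced representation bisulfite sequencing, which reads short, CpG-rich MspI fragments and gives, at each cytosine, the share of reads that kept it as methylated. The tissue was the whole right testis of 6 mature male mice of the KM strain, with 1 library a mouse. In 3 hemicastrated mice the left testis had been taken out before puberty, and 3 sham mice underwent surgery without its removal. No age is stated in the labels. The comparison asks whether the remaining testis of an animal that grew up with 1 testis is methylated differently. An intermediate level in whole tissue cannot tell a share of cells from a share of copies within each cell.

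In mammals, methyl groups sit mostly on the cytosine of CpG dinucleotides. Dense clusters of CpGs at gene starts usually stay free of methylation, while CpGs elsewhere in the gene are usually methylated. Some genes used only by germ cells are an exception, since their starts are methylated in somatic tissues and free of methylation in the germ line. The genes described here hold both kinds. Tex14 builds the bridges between sister germ cells, Tex15 acts in transposon silencing in the male germ line, Spata22 in meiotic recombination, Spata16 in acrosome formation, and Spata6 in joining the sperm head to its tail. Others work in many tissues. Tex10 acts in ribosome assembly, Tex264 is a receptor for the turnover of endoplasmic reticulum, Spata2 links the deubiquitinase Cyld to the linear ubiquitin ligase, and Spata7 belongs to the photoreceptor cilium.

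The range of methylation levels is best seen at 4 starts where the fragments fell inside the RefSeq promoter sequence (GRCm38.p6, from 250 bases before to 50 after a listed start). The sequences were chosen after their values were seen. They are printed 5′ to 3′ along the gene, with the measured cytosines of either strand in capitals, a capital G marking the cytosine opposite. The start of Spata46, a gene of sperm head shaping (chr1:170308569-170308868, plus strand), and an inner start of Spata13 (chr14:60732654-60732953, plus strand) were highly methylated and had few CpGs. The starts of Spata6 (chr4:111719760-111720059, plus strand) and Spata2 (chr2:167492825-167493124, minus strand) were nearly free of methylation.
Spata46: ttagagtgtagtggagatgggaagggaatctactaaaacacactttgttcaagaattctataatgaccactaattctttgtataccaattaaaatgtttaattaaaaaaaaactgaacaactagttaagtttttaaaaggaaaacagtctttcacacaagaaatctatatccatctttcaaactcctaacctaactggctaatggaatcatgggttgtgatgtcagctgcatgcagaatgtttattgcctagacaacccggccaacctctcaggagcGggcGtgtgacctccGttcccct
Spata13: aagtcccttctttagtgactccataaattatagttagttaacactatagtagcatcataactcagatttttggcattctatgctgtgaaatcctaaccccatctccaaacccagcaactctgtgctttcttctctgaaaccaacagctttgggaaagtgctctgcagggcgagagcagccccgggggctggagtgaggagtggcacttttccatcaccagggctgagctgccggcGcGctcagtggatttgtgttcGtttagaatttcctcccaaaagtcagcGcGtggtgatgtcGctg
Spata6: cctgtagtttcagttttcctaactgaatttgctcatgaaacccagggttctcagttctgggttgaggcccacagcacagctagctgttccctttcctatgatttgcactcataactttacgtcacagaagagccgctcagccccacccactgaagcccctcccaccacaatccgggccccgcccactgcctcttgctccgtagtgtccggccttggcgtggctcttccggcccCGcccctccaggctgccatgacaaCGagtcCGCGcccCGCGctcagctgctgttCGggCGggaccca
Spata2: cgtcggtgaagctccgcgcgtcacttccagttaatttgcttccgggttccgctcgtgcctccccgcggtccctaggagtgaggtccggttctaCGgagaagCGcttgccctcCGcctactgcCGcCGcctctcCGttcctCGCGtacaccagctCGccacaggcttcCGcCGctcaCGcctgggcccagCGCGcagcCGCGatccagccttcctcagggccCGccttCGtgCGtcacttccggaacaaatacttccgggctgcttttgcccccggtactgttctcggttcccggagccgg
The mean level over the capitals and the 6 mice was 75.3% at 3 positions in Spata46, 90.7% at 6 in Spata13, 0.655% at 16 in Spata6 and 0.437% at 38 in Spata2.

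A further 3 starts show where CpG number and level went apart or together, and here every CpG is in capitals, since no measured position fell within the sequence. Tex14 (chr11:87404815-87405114, plus strand) and Spata22 (chr11:73329491-73329790, plus strand) had dense starts with an intermediate level nearby, and Spata20 (chr11:94485261-94485560, minus strand) had a sparse start with a high one.
Tex14: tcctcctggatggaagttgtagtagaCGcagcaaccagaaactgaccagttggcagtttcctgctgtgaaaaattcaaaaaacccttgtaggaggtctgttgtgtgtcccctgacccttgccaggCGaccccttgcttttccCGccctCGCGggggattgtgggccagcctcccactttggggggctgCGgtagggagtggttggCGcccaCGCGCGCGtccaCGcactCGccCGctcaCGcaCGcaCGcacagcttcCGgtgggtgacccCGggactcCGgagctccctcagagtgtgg
Spata22: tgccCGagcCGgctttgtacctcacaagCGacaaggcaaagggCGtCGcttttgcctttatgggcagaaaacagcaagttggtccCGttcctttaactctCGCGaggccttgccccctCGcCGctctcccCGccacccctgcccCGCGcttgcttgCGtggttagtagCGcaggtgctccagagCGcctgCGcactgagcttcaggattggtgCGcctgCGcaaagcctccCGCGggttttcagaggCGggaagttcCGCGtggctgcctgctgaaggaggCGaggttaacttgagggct
Spata20: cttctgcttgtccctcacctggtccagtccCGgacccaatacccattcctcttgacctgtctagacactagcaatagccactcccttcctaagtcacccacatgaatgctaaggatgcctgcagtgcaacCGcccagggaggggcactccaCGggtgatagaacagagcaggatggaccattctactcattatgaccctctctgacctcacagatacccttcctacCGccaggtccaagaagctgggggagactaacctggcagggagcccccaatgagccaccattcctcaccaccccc
These sequences hold 20, 25 and 4 CpGs. Within 1000 bp of the start, the level was 17.2% at 10 positions of Tex14, 22.6% at 6 of Spata22 and 96.6% at 8 of Spata20.

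Across all members, RefSeq listed 31 promoters for 27 genes, and none was listed for Tex15, Spata2l or Spata24. The promoters held a median of 20 CpGs in 300 bases, against 7 in all 32851 promoters of the table. Of the member starts with 15 CpGs or more, 16 of 18 lay under 5% methylation, with a median of 0.457%. In all genes, 97.0% of 9848 such starts did. The exceptions were Tex14 and Spata22. The 4 member starts with 5 CpGs or fewer, those of Spata3, Spata20, Spata25 and Spata46, ran from 20.2% to 96.6%, with a median of 84.9%. All 1163 such starts had a median of 26.5%. The Spearman correlation between CpG number and level was -0.705 over 23 member starts and -0.366 over 14069 starts of all genes. It is a description, since starts of 1 gene share positions and MspI fragments favour CpG-rich sequence. The cAMP response element TGACGTCA, searched on both strands, was found in 1 member promoter, that of Spata7 (3.23%, against 1.79% of all promoters). The X-box core GTTGCC, on either strand, was found in those of Spata33 and Tex9 (6.45%, against 12.5%), and the motifs do not overlap each other.

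**Figure D1:**
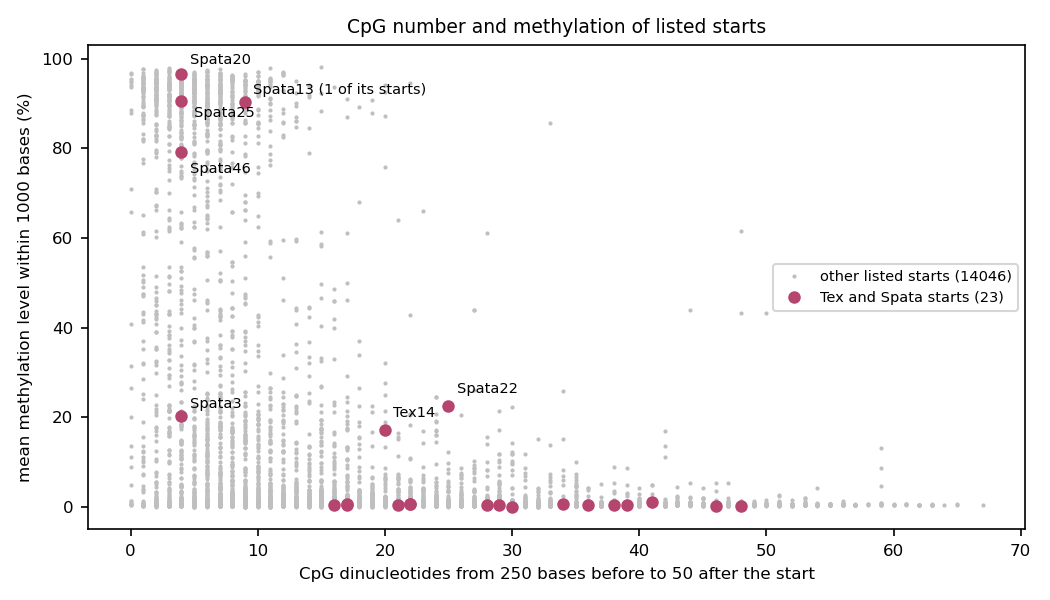
Number of CpG dinucleotides in the promoter sequence of each listed start (horizontal) and mean methylation level of the 6 mice within 1000 bases of it (vertical, %), for 23 starts of Tex and Spata genes (large points) and 14046 other starts (small points). Most member starts lie at the bottom right, while Spata20, Spata25, Spata46 and 1 start of Spata13 lie at 79.1% or above with fewer than 15 CpGs, and Tex14 and Spata22 lie at 17.2% and 22.6% with 20 or more.

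Libraries held 64504011 to 78630942 calls. Mitochondrial DNA, taken as nearly unmethylated, read 0.478% to 0.617% methylated, so a level below about 0.6% is within what incomplete conversion and errors can give. Of 125590 measured positions in promoter sequences, 99.99% fell on a CpG. The tissue was checked at loci that male germ cells keep low. Starts or ends of the imprinted genes Peg10, Kcnq1ot1 and Plagl1 read 1.43% to 13.0%, Dazl read 6.89% to 10.3%, and the germ cell genes Mael and Sycp3 read 16.5% to 32.1% and 10.6% to 28.2%. Hemicastrated mouse 1 was the highest at all of these loci but Peg10. The part of cell makeup in the member levels was not tested.

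Gene ends are the 1000 bp either side of a gene boundary, and gene bodies the rest of the gene. Ends on the start side were mostly free of methylation, whereas far ends were mixed and bodies ranged widely. A window needed 3 positions and took their unweighted mean. On the start side, 12 of 16 member ends lay under 5%, with a median of 0.523%. In all genes, 85.3% of 9902 such ends lay under 5%, with a median of 0.578%. On the far side, 2 of 3 member ends were at 80% or more, with a median of 90.6%. That median is the level of Spata25, whose far and start windows hold the same positions, so it counts on both sides. The low far end, that of Tex2, rests on 3 positions. In all genes, 2719 far ends had a median of 62.4%, with 31.4% under 5%. The side was not known for 3 further ends, of which 2 lay under 5%. The 18 member bodies had a median of 74.2%, against 75.7% over 12940 bodies. Of the bodies, 8 were at 80% or more, 9 lay between 5% and 80%, and that of Tex9 was under 5%.

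Over the 9 genes with both kinds of window, body level minus end level averaged 53.5 percentage points (SD 0.628) over the 3 hemicastrated mice and 56.0 points (SD 1.56) over the 3 sham mice. This difference between the groups was not tested. The largest part of it comes from Spata3, whose body differed by -14.5 points over 3 positions with as few as 12 reads. The end was the lower window in 8 of the 9. The gap was 97.1 points in Spata18, a gene of mitochondrial quality control, 94.5 in Spata6 and 93.6 in Tex264, and in these 3 genes it was at least 92.6 points in each of the 6 mice. It was 78.4 points in Tex2, 51.4 in Tex14, 40.2 in Spata2, 19.9 in Tex15 and 19.4 in Spata3. These gaps are not like for like. The end of Tex2 is its far end, and its body holds a run at 5.87% that lies 590 bp after its listed start. The body of Spata3 lies beside its listed start, and most body positions of Tex15 lie close to the boundary. Spata20 had no gap, with 96.6% at its end and 94.8% in its body. Over 8089 genes body minus end was 47.3 points in hemicastrated and 47.5 points in sham mice.

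**Figure D2:**
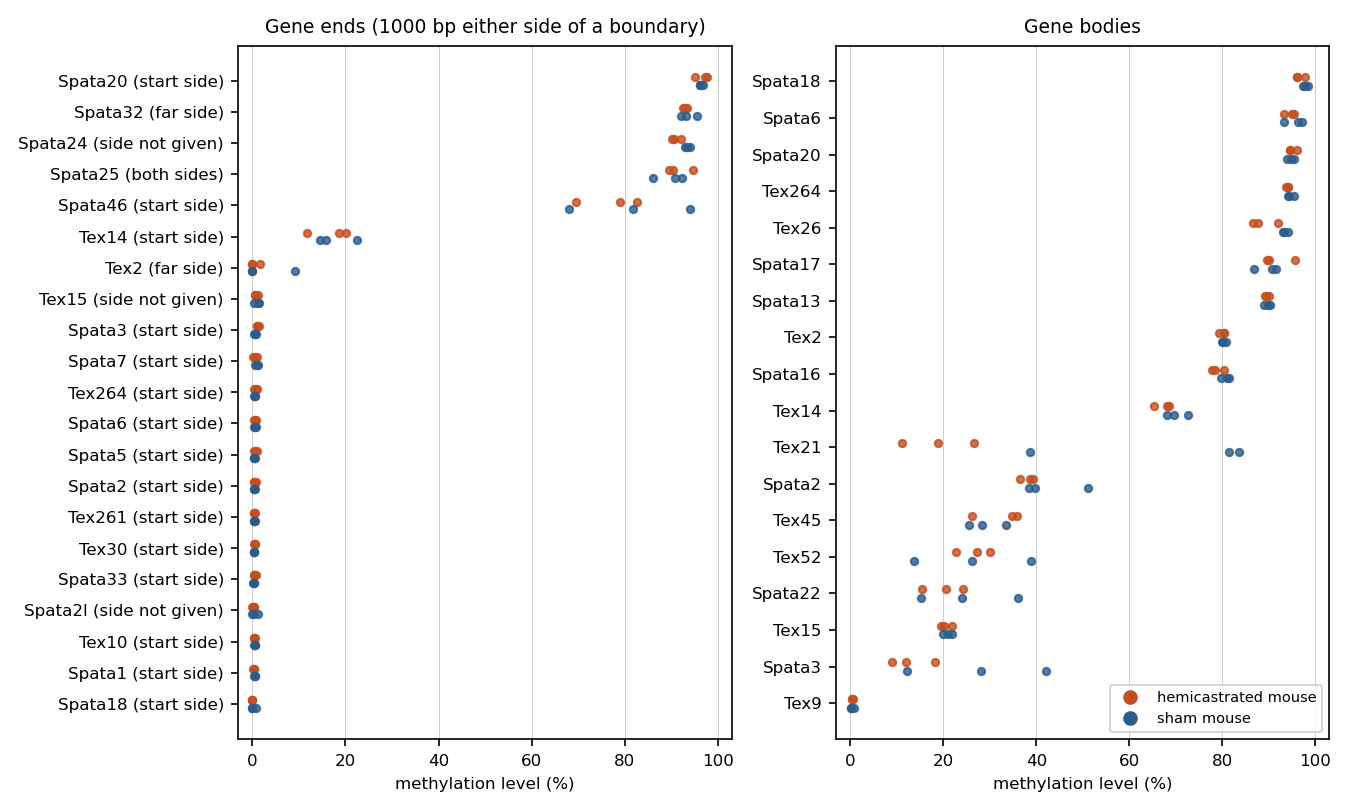
Methylation level (horizontal, %) of each mouse in the 21 measured member ends (left) and 18 member bodies (right), ordered by mean. Ends gather near 0% with a group of 5 at 68.1% or above, while bodies spread from Spata18 at the top to Tex9 at the bottom, and the mice of Tex21 stand far apart.

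Low ends belonged mainly to the widely expressed members. Of their 11 measured ends, 10 lay under 5%, with a median of 0.437%, and the exception was Spata20. The 10 include the far end of Tex2, which has 3 positions. Of 8 ends of germ cell members, 3 lay under 5%, those of Spata3, Spata6 and Tex15, 2 lay between, Tex14 and Spata46, and 3 were above 80%, Spata24, Spata25 and Spata32. Of these high ends, that of Spata32 is a far end, the side of Spata24 is not known, and the window of Spata25 serves both sides. Most ends of the widely expressed members are start ends. Far ends of all genes had a median of 62.4%, against 0.578% for start ends, so the lists are not like for like. The ends of Spata1 and Spata33, on neither list, were low too, at 0.34% and 0.41%. That of Spata1 holds the same positions as an end of Gng5. The low ends of Spata18, Spata2l and Tex261 likewise share their positions with an end of another listed gene. The 6 bodies of widely expressed members had a median of 91.9%. The 7 of germ cell members had a median of 43.4%, which is the level of Tex21 and rests on unlike windows. The body positions of Spata22 and Spata3 all lie within 1000 bp of a listed start, and the body of Tex15 joins near-boundary positions with far ones. The bodies of Tex14, Spata16 and Spata6 each read 68.7% or more. The body medians are therefore not set against each other. These lists were drawn from textbook knowledge of where the genes act, and expression was not analysed here.

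The highest ends were close to fully methylated in every mouse. At the start of Spata20 the hemicastrated mice 1, 2 and 3 read 95.03%, 97.8% and 97.4%, and the sham mice 96.3%, 96.1% and 96.8%. At the far end of Spata32 they read 92.6%, 93.1% and 93.5%, and 93.2%, 92.2% and 95.6%. The window of Spata32 holds the same positions as an end of Efcab15, so it is not particular to either gene. In both genes the groups overlapped. Spata25 is so short (1153 bp) that its ends share their 5 positions, which an end of Zswim1 also holds. There the levels were 90.3%, 89.6% and 94.7% in hemicastrated and 86.1%, 90.8% and 92.4% in sham mice, which again overlapped. At an end of Spata24 (chromosome 18, strand not listed) the hemicastrated mice read 92.2%, 90.1% and 90.7% and the sham mice 94.1%, 92.9% and 93.4%, so all 3 hemicastrated values lay below all 3 sham values. At its other end only 2 positions were measured, too few for a window.

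The start of Spata46 was high but split by position. Its window read 69.6%, 79.0% and 82.6% in hemicastrated and 93.9%, 68.1% and 81.7% in sham mice. Of its 4 positions, 3 read between 87.2% and 96.5% in every mouse. The first of them on the chromosome, 170308846, read 0%, 41.2% and 50.4% in hemicastrated and 93.5%, 0% and 46.0% in sham mice, at 113 to 155 reads each. A level of 0% in 147 or 155 reads allows up to 2.04%. The values at that position were at 0 in 2 mice, near the middle in 3 and high in 1, with both groups represented at 0 and in the middle. It lies 27 bases after the listed start and is the first capital in the sequence of Spata46 above.

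Ends under 5% ranged from 0.229 points between the 6 mice at Tex261 to 1.25 at Spata2l, and over 9.09 points at the far end of Tex2, which had few reads. Spata7 ranged over 1.04 points and Spata5 over 0.807. Among low ends, that of Spata3 differed most by its unadjusted p, at 1.03%, 1.34% and 0.892% in hemicastrated against 0.658%, 0.768% and 0.380% in sham mice. All 3 hemicastrated values were above all 3 sham values, by 0.484 points on average (SE 0.176). The mitochondrial level was 0.478% to 0.617% in the 6 libraries, and the part of incomplete conversion in this difference was not tested. This window, with 56 positions, lies at the outer gene boundary, 3315 bp before the nearest listed start of Spata3. Spata33, a sperm calcineurin partner, showed the same order at its start, 0.748%, 0.442% and 0.407% against 0.382%, 0.223% and 0.287%, in a window shared with Chmp1a. Spata18 read 0% in every mouse but sham 2, at 0.667%, with a median of 15.5 reads a position. The 65 to 143 reads of the windows at 0% allow levels up to 2.10% to 4.62%, counting error only. Spata2l read 0.309%, 0.370% and 0% in hemicastrated and 0.427%, 1.25% and 0% in sham mice. Tex264 read 0.826%, 0.370% and 0.923% against 0.401%, 0.565% and 0.568%. In these 3 genes the groups overlapped.

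Tex14 and Spata46 were the only member ends with a mean between 5% and 80%. The start of Tex14 read 18.6%, 20.1% and 11.8% in hemicastrated and 15.7%, 22.6% and 14.6% in sham mice, so the groups overlapped fully. The window holds the same positions as an end of Rad51c, the neighbouring recombination gene, and cannot be assigned to 1 of them. At the far end of Tex2, 3 positions read 0%, 0% and 1.67% in hemicastrated and 0%, 9.09% and 0% in sham mice at 10 to 20 reads each, so sham 2 was highest, and 0 of 30 reads still allows a level up to 10%.

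Levels were low near the listed starts and high far from them. Within 250 bp of a start, 359 member positions in 14 genes had a mean of 4.47%, and 93.6% of them lay under 5%. From 501 to 1000 bp, 77 positions in 6 genes had a mean of 7.28%. From 1001 to 2000 bp, 19 positions in 3 genes had a mean of 63.7%. From 2001 to 5000 bp the mean was lower again, 33.9% over 91 positions in 6 genes, of which 56 are the low outer boundary of Spata3. Beyond 5000 bp, 331 positions in 14 genes had a mean of 84.2%, with 2.11% of them under 5%. Over all listed starts the mean rose from 1.77% within 250 bp to 22.5% at 1001 to 2000 bp, 43.6% at 2001 to 5000 bp and 53.1% beyond 5000 bp. There every measured position, inside a gene or not, was placed by the nearest start of any gene. Member positions were placed by starts of their own gene, so the series are not like for like. The genes behind each distance class differ, so the classes are not a path through 1 gene.

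**Figure D3:**
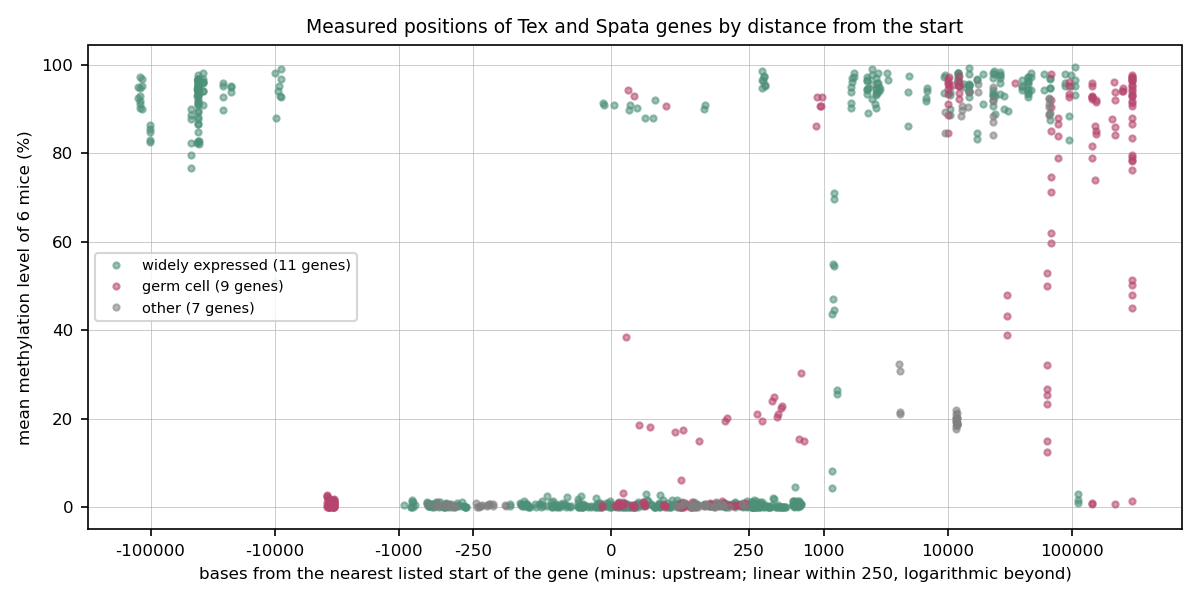
Mean methylation level of the 6 mice (vertical, %) at each member position against its distance from the nearest listed start of its gene (horizontal, bases, linear within 250 and logarithmic beyond), coloured by gene list. Levels sit near 0% on both sides of the start and mostly above 80% beyond 5000 bases, with intermediate positions between and a low group upstream that is the outer boundary of Spata3.

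Within bodies, levels changed between runs of neighbouring positions. A run here is a stretch of measured positions with no gap over 500 bp. Members held 70 runs of 3 or more positions, of which 18 were under 5%, 14 between 5% and 80% and 38 at 80% or more. The shares over 42270 runs of all genes were 34.2%, 18.4% and 47.4%, against 25.7%, 20% and 54.3% in members. Spata13 (chromosome 14, 60485168 to 60764556) held runs of 3 or more positions from 79.0% to 96.7% along its length, with a single run at 0.708% that lies 452 bp before an inner listed start with 22 CpGs. Its last listed start was methylated, at 90.3% over 11 positions, so the same tissue held an unmethylated and a methylated start of this gene. The body of Spata2 is a run of 10 positions 1166 bp after its start at 40.6%, beside 76 positions around the start at 0.437%. The body of Tex9 read 0.432%, and all of its 14 positions lay 144 bp or more after a listed start that sits 18986 bp inside the gene boundary. Tex9 levels were 0.336%, 0.482% and 0.604% in hemicastrated and 0.171%, 0.237% and 0.761% in sham mice. That window is therefore an end in all but the definition by gene boundary.

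The same holds for Spata22 and Spata3, whose listed starts lie 3181 and 3914 bp inside the boundary. The 6 positions of Spata22 began 384 bp after its start and read 24.2%, 15.5% and 20.6% in hemicastrated and 24.1%, 36.1% and 15.2% in sham mice. The 3 positions of Spata3, 637 bp after its start, read 11.9%, 18.2% and 8.89% in hemicastrated and 42.0%, 28.2% and 12.3% in sham mice, at 12 to 26 reads each. In both genes the groups overlapped, and sham 2 in Spata22 and sham 1 in Spata3 were the highest. With windows placed at listed starts in place of gene boundaries, the mean difference over member ends moved from -0.404 to -1.34 points, with these genes among those that changed place.

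Intermediate runs were seen in few members. Between 10% and 30% lay 6 runs of 3 or more positions, 8.57% of the member runs against 6.54% of all runs. They belonged to Spata22, Spata3, Tex14, Tex45 and Tex52. Besides its start, Tex14 (chromosome 11, 87405013 to 87555823) held a run of 8 positions 63507 bp after it at 24.1%, 30.2% and 26.8% in hemicastrated and 31.3%, 35.1% and 31.1% in sham mice, so all hemicastrated values were below all sham values, a difference of -5.51 points that was not tested as a run. Its 3 other runs of 3 or more positions read 91.4%, 84.4% and 94.4%. Tex45 held 16 positions at 19.6% and, further on in the gene, 3 positions at 89.7%. Its mice read 25.1%, 25.4% and 13.5% in hemicastrated and 13.5%, 22.7% and 17.4% in sham mice over the 16 positions. Tex52 read 22.7%, 29.96% and 27.2% in hemicastrated and 13.7%, 26.2% and 38.9% in sham mice over 4 positions. The groups overlapped in Tex45 and Tex52.

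The body of Tex15 combined opposite levels. Its mean was 20.8%, from 19.6% to 22.0% over the 6 mice, with 7 positions close to the boundary that each had a mean under 5% and 2 positions far inside at 85.2%. Its measured end read 0.884%. Spata16, Spata17 and Tex26 had bodies but no measured end. Spata16 (chromosome 3, 26637620 to 26983249) had runs of 3 or more positions from 66.9% to 88.3%, and Spata17 read 86.8% to 95.7% over the mice.

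No member end or body passed the test for hemicastration. The test compared methylated with unmethylated reads, summed over a window, with the quasi-likelihood F test of edgeR, adjusted over all windows by Benjamini and Hochberg. None of 21 member ends was called, as in all 16783 ends (0%), and limma on log2 ratios called none either. At an unadjusted p under 0.05 stood 1 member end (4.76%), that of Spata3, against 728 of all ends (4.34%). Of the 18 member bodies none was called, as in all 12937 bodies (0%) and with limma. At an unadjusted p under 0.05 stood 2 bodies (11.1%), Tex21 and Tex26, against 447 of all bodies (3.46%), and limma had 852 ends and 541 bodies there. The smallest adjusted p by edgeR was 0.990 among member ends and 0.9999 among member bodies.

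Groups did not overlap in 3 of 21 member ends, Spata3, Spata33 and Spata24, against 9.86% of all ends. They did not overlap in 2 of 18 bodies, Tex21 and Tex26, against 9.38% of all bodies. Both shares are near the background. Ends were higher in hemicastrated mice in 9 members and lower in 12, with a median difference of -0.055 points, against 0.028 over all ends. Of all ends tested, 9103 were higher and 7680 lower. Bodies were higher in 5 and lower in 13, with a median of -0.815 points, against -0.060 over all bodies. Of all bodies tested, 6032 were higher and 6904 lower. All 7 bodies of germ cell members were lower, with 1 at an unadjusted p under 0.05 and none called. Among them, Tex15 and Spata22 turned direction when 1 mouse was left out. Of the 6 bodies of widely expressed members 5 were lower, and none was called.

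Averaged over genes, member ends read 22.6% ± 0.316 (SD, n = 3) after hemicastration and 23.0% ± 0.127 (SD, n = 3) after sham surgery. Member bodies read 58.1% ± 0.622 (SD, n = 3) and 62.6% ± 0.889 (SD, n = 3), a difference of -4.45 points in which the 3 hemicastrated means, 57.8%, 58.9% and 57.7%, lay below the sham means of 62.7%, 61.6% and 63.4%. Without Tex21 the difference was -1.83 points. That mean still holds Spata3, the next largest body difference at -14.5 points, which rests on 3 positions and has overlapping groups. Over all genes bodies read 59.6% and 59.9%.

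**Figure D4:**
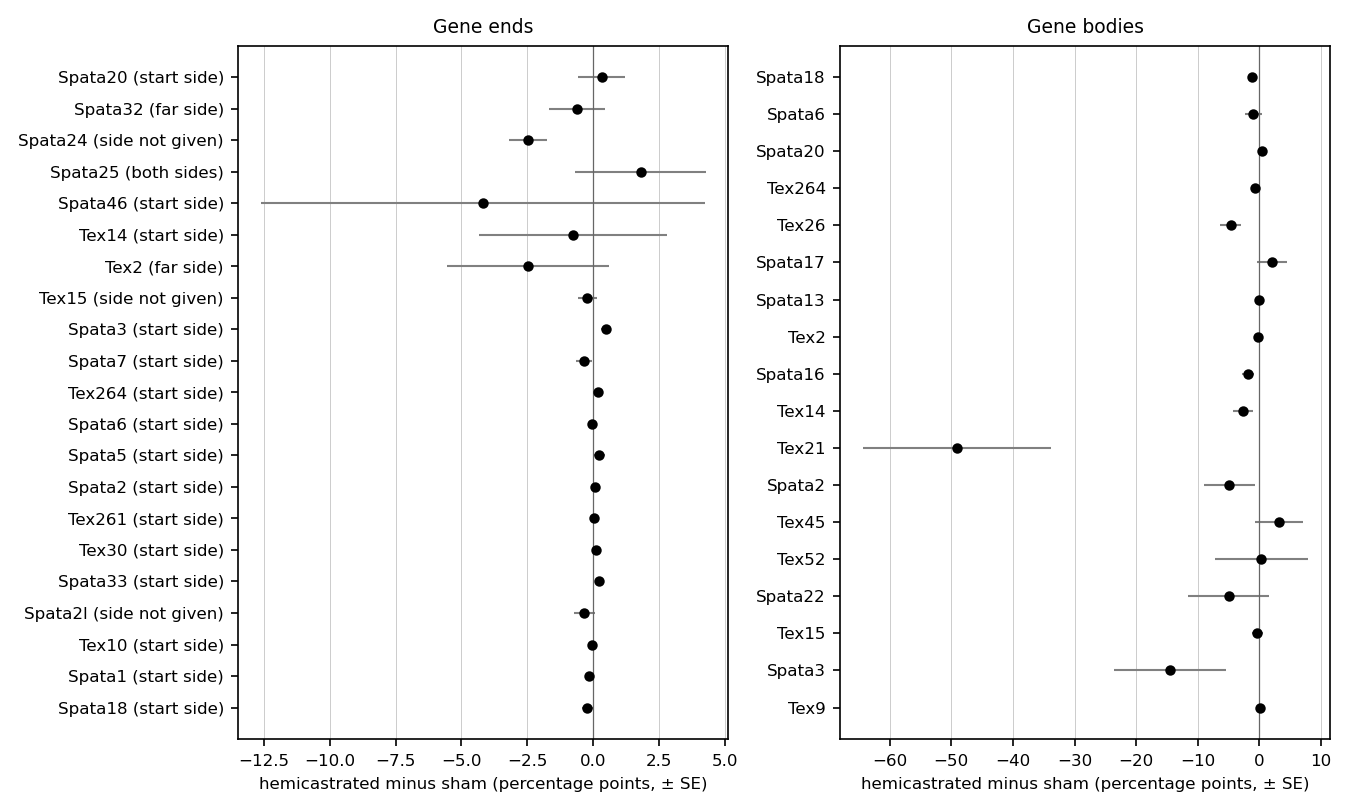
Difference in methylation level between hemicastrated and sham mice (horizontal, percentage points, with SE from 3 mice a group) for the 21 member ends (left) and 18 member bodies (right), on different scales. Most windows lie within a few points of 0, and Tex21 stands apart at -49.1 points.

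Tex21 (chromosome 12, 76198686 to 76246758) showed the widest difference among members. Its body window consists of 3 positions within 53 bp, the nearest of them 29926 bp after the listed start. It read 18.9%, 11.1% and 26.5% in hemicastrated and 81.4%, 38.7% and 83.7% in sham mice. Sham 1 and sham 3 stood high, sham 2 lay closer to the hemicastrated mice, and the groups did not overlap. The difference was -49.1 points (SE 15.3), with an adjusted p by edgeR of 0.9999 over all bodies and an unadjusted p of 0.00189. Without sham 2 the difference was -63.7 points, and leaving out each mouse in turn gave an adjusted p by edgeR from 0.138 to 0.9999. The likelihood ratio test of edgeR with a dispersion of its own for each window, tried after the data were seen, gave an adjusted p of 0.0123.

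Single positions gave 2 calls in members, both in Tex21, of 887 member positions tested. Over the genome 706 of 814966 positions (0.0866%) were called. In this fit all positions shared 1 spread, so the spread between mice at a position did not enter its test. Position 76216768 read 18.5%, 17.5% and 34.1% in hemicastrated and 87.1%, 42.6% and 88.0% in sham mice, with an adjusted p by edgeR of 0.0182. Position 76216775 read 16.7%, 0% and 15.9% against 83.9%, 29.8% and 88.0%, with an adjusted p by edgeR of 0.000168. At the third position, 76216820, levels of 21.6%, 15.8% and 29.5% against 73.3%, 43.8% and 75.0% had an adjusted p by edgeR of 0.169. Reads ran from 24 to 57 and were nearly equal at the 3 positions of a mouse, so the positions come from the same fragments and are not separate evidence. The call at 76216768 was lost without hemicastrated 1 or 2 or sham 1 or 3, with an adjusted p by edgeR from 0.344 to 0.882, and that at 76216775 without hemicastrated 2 or sham 1 or 3, from 0.0633 to 0.0967. No start of Tex21 was measured, and its expression was not analysed here.

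Tex26 had the next smallest p among member bodies after Tex21. Its 8 positions read 87.7%, 91.9% and 86.6% in hemicastrated and 94.0%, 93.3% and 93.0% in sham mice. All hemicastrated values lay below all sham values, with a mean difference of -4.68 points (SE 1.64) and an adjusted p by edgeR of 0.9999. Spata3 came after Tex26, with a difference of -14.5 points (SE 9.02) over the 3 positions whose levels are given above, an adjusted p by edgeR of 0.9999 and overlapping groups. Tex14 and Spata18 followed, with differences of -2.69 and -1.20 points between hemicastrated and sham mice and overlapping groups. Tex14 read 65.3%, 68.6% and 68.1% against 69.5%, 72.5% and 68.0%, and Spata18 read 97.7%, 96.1% and 95.9% against 97.4%, 98.4% and 97.7%.

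**Figure D5:**
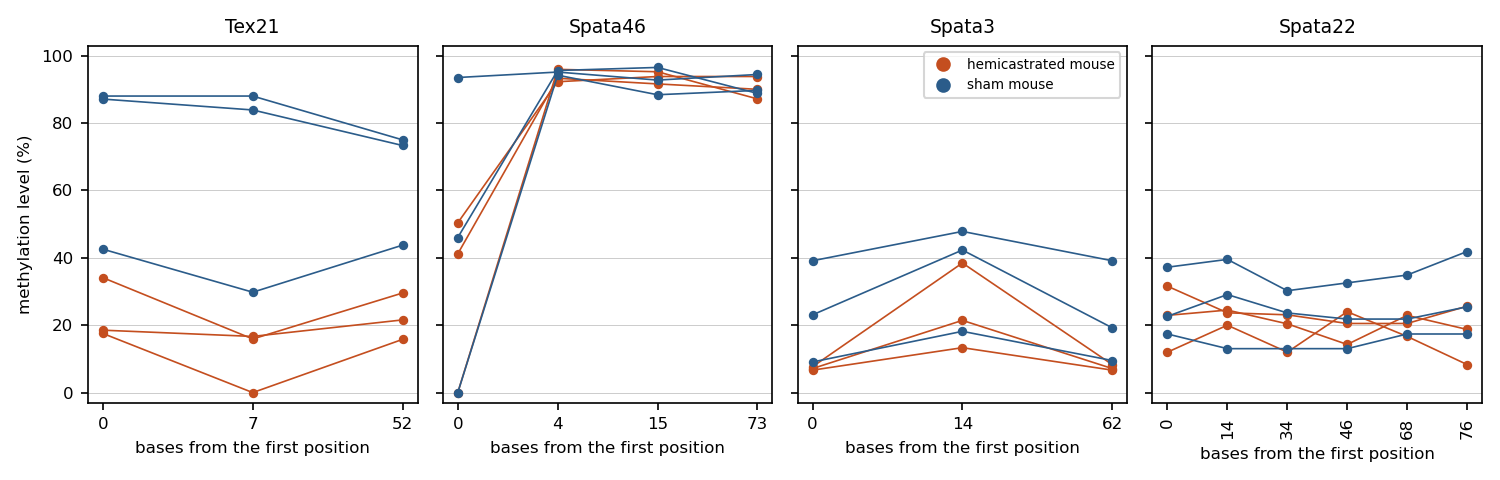
Methylation level (vertical, %) of each mouse at neighbouring positions (horizontal, bases from the first of them) in the Tex21 body, the Spata46 start, and the runs beside the listed starts of Spata3 and Spata22. In Tex21 the groups are apart at each of the 3 positions, whereas in Spata46 the mice differ widely at the first position only.

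Positions that varied widely between mice were as frequent in members as elsewhere. A span of 40 points or more over the 6 mice was seen at 14 of 1054 member positions (1.33%), in 7 genes, against 1.38% of all positions. Beside Tex21 and Spata46 they lay in Spata13, Spata16, Spata2, Spata33 and Tex52. In Spata16, position 26944777 read 46.8%, 51.7% and 8.82% in hemicastrated and 96.3%, 10.4% and 56.5% in sham mice. The cytosine of the other strand next to it, 26944778, read 44.0%, 50.3% and 40.4% against 53.8%, 35.9% and 76.5%. The strands of this CpG differed most in sham 1. In Spata13, the adjacent positions 60587185 and 60587186 were lowest in sham 2, at 45.6% and 41.0%, where the other mice read 72.8% or more. None of these positions outside Tex21 was called, and sequence differences between the mice were not tested.

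Other genes near these pathways were measured for reference. Among 17 genes whose products members are known to work with, such as Cep55 for Tex14, Meiob for Spata22 and Cyld for Spata2, 10 ends were measured with a median of 0.584% and 8 bodies with a median of 84.7%. None was called by edgeR. In hemicastrated mice 7 ends were higher and 3 lower, and 4 bodies were higher and 4 lower. Among 35 other sperm assembly genes, such as Odf and Akap genes of the sperm tail, 16 ends had a median of 0.676% and 18 bodies 82.0%. None was called by edgeR. Of these, 8 ends were higher and 8 lower, and 5 bodies were higher and 13 lower, with 1 end and 1 body at an unadjusted p under 0.05.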

How the data were processed

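Per the labels' protocols, MspI fragments of testis DNA were size-selected, bisulfite-converted, amplified and sequenced, and the submitters' processing notes name Bismark, TopHat2 2.0.11 and GRCm38, with no role stated. The authors deposited raw counts of methylated and unmethylated reads at each cytosine, and the level in percent, for each of 6 libraries. Trimming and duplicate removal: not given in the sources used here. PCR copies are not independent molecules, so depth gives counting error only. The labels name no batch.

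Positions with 10 or more reads in all 6 libraries were kept, each strand its own position. Counts were summed over windows with 3 or more positions, and levels are unweighted means over positions. Boundaries, strand and listed starts came from RefSeq tables (GRCm38.p6). edgeR 4.0.16 (R 4.3.3) fitted methylated against unmethylated counts with a column for each library, a methylation-by-group term and a common dispersion, at an adjusted p of 0.05. limma 3.58.1 on log2 ratios, 1 added to each count, was an alternative, as were 20 reads, other windows and position minimums, a robust prior, a replicate block, leaving out wide positions and leaving out each mouse. Other dispersions were tried on the real counts before the common one was kept.

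The fit was tried on data simulated with the median spread of the real counts at each level. It recovered 31 of 100 ends and 78 of 100 bodies changed by 1 on the log2 odds scale. Of those changed by 2 it recovered 90 and 96 of 100. It called 16 of 16460 unchanged ends and 13 of 12636 unchanged bodies. Changed windows were drawn only from those above 5% and short of full methylation, so the recovery does not cover ends under 5%. Windows that vary more than the median of their level were not simulated as such. A first simulation, with the same spread at all levels, recovered no ends and was replaced.

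Values of every mouse are printed for the members with the smallest p (5 ends, 5 bodies), the highest ends, the lowest bodies, the widest ranges and called positions. Others given in full, such as Spata33, Tex45 and the printed sequences, were chosen after their values were seen. Members and lists were chosen with earlier results of these data known.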

Additional observations from a re-analysis of the deposited data

How the results depend on the processing

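With 1 mouse left out, gene end calls ran from 0 to 2 (2 without hemicastrated 3 and 1 without sham 3, none of them a member) and gene body calls from 0 to 1 (1 without sham 2, no member), and single position calls from 588 to 773. Dispersions tried after the data were seen gave 0 end and 0 body calls with a trend and 0 and 2 with a dispersion of 0, no member among them. The likelihood ratio test called 17 ends and 18 bodies, 1 of them a member, Tex21. A robust prior gave 446 single position calls, against 706. The main fits did not pair the mice by the numbers of the titles. Deviations of same-numbered mice correlated by 0.0583, 0.125 and 0.0632 over ends and 0.0581, 0.0724 and -0.00155 over bodies. Such weak correlations cannot show whether the mice are paired. With the replicate block there were 0 end, 0 body and 606 single position calls. Over ends, though not over bodies, every mouse correlated best with its own number.

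The member end difference of -0.404 points was -0.160 with symbols that carry a dot or further digits and -1.34 at listed starts, and ran from -0.499 to -0.222 without each mouse in turn. The body difference of -4.45 was -3.47 with those symbols, -1.68 without positions spanning 40 points or more and -1.83 without Tex21, and ran from -4.93 to -4.05. End minus body of -54.7 was -53.5 at 20 reads and -48.1 with those symbols, and ran from -55.1 to -54.2.

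The 20 named windows gave 274 values, of which 258 kept direction and call, 1 was 0 (the Spata18 start without sham 2), 14 in 11 windows turned direction and 1 gained a call, the Tex21 body with the likelihood ratio test at -49.1 points. All turns came from leaving out 1 mouse, and none of those windows was called. The differences then ran, in points, from -0.613 to 0.0127 at the Spata2l end, from -0.214 to 1.17 at the Spata20 start, from -1.38 to 0.357 at the Spata32 far end, from -0.0379 to 3.12 at the Spata25 ends, from -10.8 to 2.16 at the Spata46 start, from -2.39 to 1.75 at the Tex14 start, from -3.99 to 0.556 at the Tex2 far end, from -0.0246 to 0.271 at the Tex9 body, from -0.999 to 0.188 at the Tex15 body, from -9.96 to 0.452 at the Spata22 body and from -5.94 to 6.64 at the Tex52 body. The cause of these turns was not tested beyond the fewer mice. A further 6 values could not be had, for want of positions, and 1 test, that of the Spata18 start without sham 2, where all other mice were at 0%. Depth limits the low windows, where 10 reads cannot show a level under 10%.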

Other observations

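Some genes carry names close to the rule but with further digits or a dot, and 5 of them held 3 or more measured positions. Tex19.1, a germ line gene that restrains transposons, had a start of intermediate level at 47.4%, 43.5% and 36.1% in hemicastrated and 40.9%, 35.4% and 35.7% in sham mice, over 4 positions. Spata5l1 had a start of 73 positions at 0.753%, 1.23% and 0.428% in hemicastrated and 0.306%, 0.377% and 0.344% in sham mice, with the groups apart and an adjusted p by edgeR of 0.990. Of the Spata31d1 copies on chromosome 13, Spata31d1a and Spata31d1b read 90.2% and 88.6% in their bodies. Spata31d1d had a body at 93.2%, with 97.55%, 95.4% and 94.4% in hemicastrated and 89.5%, 90.1% and 92.6% in sham mice. Its far end read 2.81%, 2.14% and 4.55% in hemicastrated and 4.69%, 8.97% and 4.74% in sham mice. The groups were apart in both windows, with hemicastrated mice above in the body and below at the far end. Neither window was called by edgeR. The Spata31d1 genes are near-identical copies, so their values are uncertain.

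On the X chromosome, outside the rule, Tex11, a meiotic gene, held 12 positions at 85.7%, 90.6% and 88.5% in hemicastrated and 87.5%, 88.1% and 86.6% in sham mice. Tex16 held 14 positions at 77.3%, 72.0% and 80.5% against 75.1%, 74.5% and 75.0%. The groups overlapped in both genes, and other X-linked Tex symbols held fewer than 3 positions.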
